A study of Drosophila melanogaster with 24 samples.

Results

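Abdomens of adult male fruit flies (Drosophila melanogaster) were compared with whole male pupae, using 4 samples of each out of the 24 samples of the series. The samples were taken by their labels, abdomens of males against pupae labelled male only, and all 22575 probes of the array were compared. Every group came from the isogenic line WI89. Male abdomens were dissected from adults 24 to 48 h old. Male pupae were collected as white prepupae 0 to 1 h after pupariation, the moment the larval skin becomes the pupal case, and were kept for 12 h at 25 °C. The other groups, used below only for reference, were heads of adult males of the same age, female pupae treated like the male pupae, mixed-sex pupae made by pooling equal amounts of male and female pupal RNA, and mixed-sex embryos of mixed stage from 24 h of egg laying. The series as a whole addressed alternative splicing that differs with sex, stage and tissue. The labels and design text give no further genotype and no treatment for any group.

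Metamorphosis in flies is driven by pulses of the steroid hormone ecdysone. Larval tissues are broken down while imaginal discs and histoblasts, the cells set aside in the larva, build the adult body, and muscles and the nervous system are remodelled. The adult male abdomen holds the testes and accessory glands, the gut, much of the fat body, muscle and cuticle. The comparison therefore sets a late product of metamorphosis in 1 body region against whole animals near its start, and stage and body part cannot be told apart in it. In RNA from whole organs or animals, fewer cells of a type and less RNA per cell cannot be told apart either.

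The probes are not tied to genes in the files used here. Each result is about probes, several of which may belong to 1 gene, and probes are called by their number in spot order. No marker gene could be read to check the labelled body part and no gene list could be counted. Whether a probe changed through transcript level or through splicing cannot be told apart. Signals are given on a log2 scale after background correction, normalization between samples and adjustment for dye, so a difference of 1 is a doubling. Each group had 2 samples labelled with the dye Cy3 and 2 with Cy5.

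The labels do not give the arrays, and the pairs of samples that shared an array, 1 in each dye, were inferred from identical patterns of marked spots. By that inference, abdomen replicates 2 and 3 shared their arrays with heads, abdomen replicate 1 with mixed-sex pupae, and abdomen replicate 4 with male pupa replicate 1. The other male pupa samples shared arrays with embryos (replicate 2), female pupae (replicate 3) and mixed-sex pupae (replicate 4). Median signal over background was 76.6, 8.24, 78.1 and 15.6 scanner units in abdomen replicates 1 to 4, and 76.2, 25.8, 119 and 61.7 in male pupa replicates 1 to 4. Of the probes, 89.1% to 100% lay above the detection level in the abdomen samples and 100% in each male pupa sample after rounding. All 4 abdomen samples and 1 male pupa sample lay on the 8 dimmer arrays, and the other 3 male pupa samples lay on the 4 brighter ones. Precision is limited by the number of arrays. Whether replicates came from separate cultures of flies is not stated in the labels, and the p-values therefore reflect the scatter among these samples alone, part of which may be technical.

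Male abdomens and male pupae differed at 3482 of 22575 probes, 15.4% (limma, Benjamini-Hochberg adjusted p at 0.05). Of these, 2397 probes were higher in abdomens, 10.6% of all, and 1085 were higher in male pupae, 4.81% of all. Abdomen-higher probes thus made up 68.8% of the calls. Their median log2 change was 0.56, with the middle of the list between 0.38 and 0.86 (quartiles). The median change of the pupa-higher probes was -0.57, with quartiles of -0.89 and -0.37. The median change over all probes was -0.02, and the median standard error was 0.10.

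The excess toward abdomens was largest in number among the small differences. At 1 log2 unit or more, 430 probes were higher in abdomens (1.90% of all) and 232 in male pupae (1.03%). At 2 log2 units or more the counts were 90 (0.399%) and 73 (0.323%), at 3 units 26 and 24, and at 4 units 6 and 6. The difference between these shares was not tested. The largest changes were therefore similar in number in both directions.

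**Figure D1:**
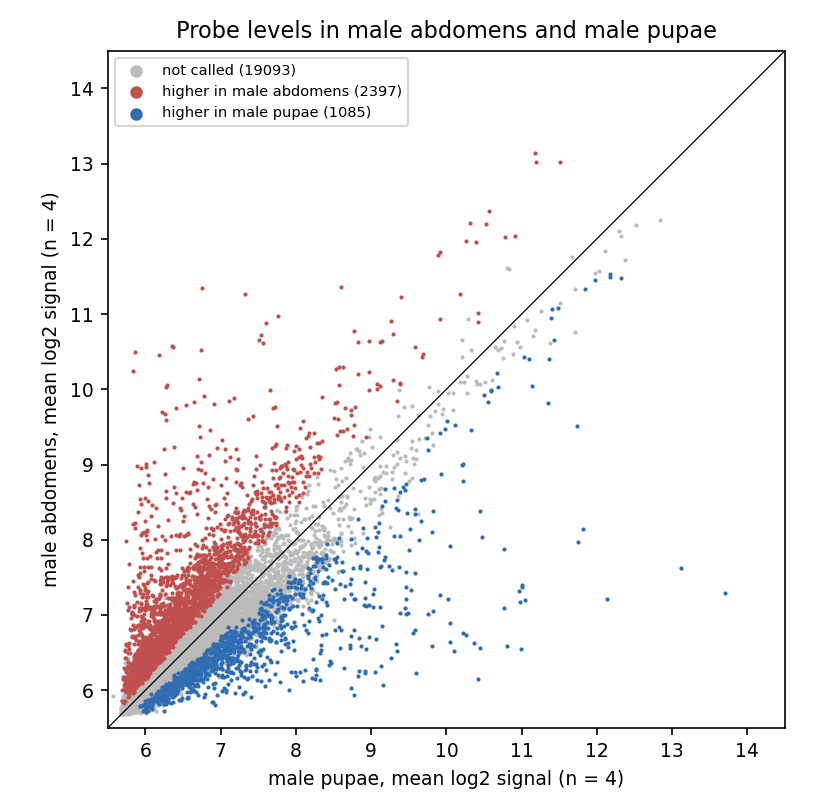
Mean dye-adjusted log2 signal of each of the 22575 probes in male pupae (x axis) and male abdomens (y axis), 4 samples each, with the line of equal signal. The 2397 red probes above the line were called higher in abdomens and the 1085 blue probes below it higher in male pupae. Grey probes were not called.

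Calls were more frequent at brighter probes, above all those toward male pupae. The probes were ranked by their mean signal over all 24 samples and divided into 4 bins of nearly equal size. In the dimmest bin 4.06% were higher in abdomens and 0.602% in male pupae. In the second bin the shares were 8.98% and 1.90%, and in the third 13.2% and 3.81%. In the brightest bin they were 16.2% and 12.9%. Since 12 of the 24 samples were pupae and 4 were abdomens, a change itself raises pupa-higher probes in this ranking more than abdomen-higher ones. Ranked instead by the mean of heads and embryos, 8 samples outside the comparison and a choice made after seeing the data, 10.2%, 9.21%, 9.59% and 13.5% of the bins from dim to bright were higher in abdomens. The shares higher in male pupae were then 1.19%, 2.92%, 4.57% and 10.5%. By that ranking abdomen-higher probes varied little with signal, while 595 of the 1085 pupa-higher probes lay in the brightest bin. These shares were not tested. The offset used in the background correction compresses changes of dim probes, so their sizes are understated in both directions.

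**Figure D2:**
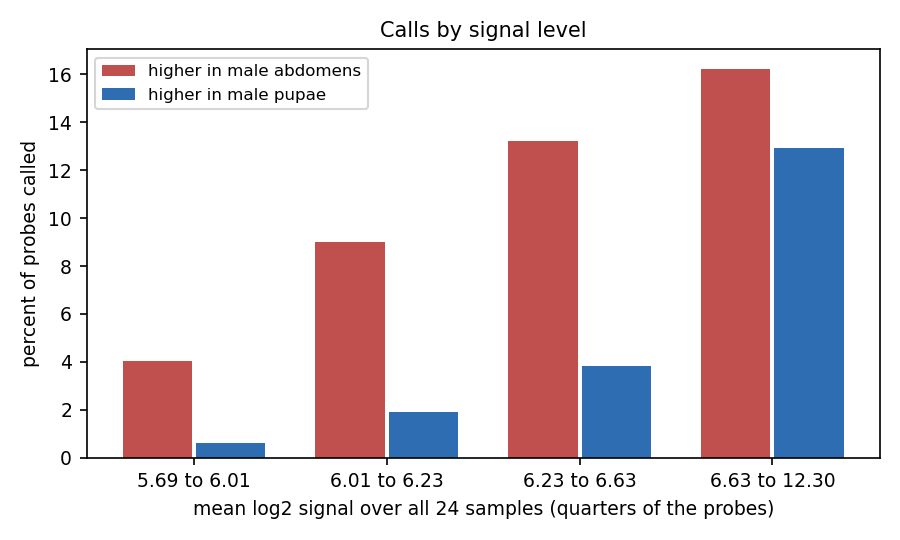
Percent of probes called higher in male abdomens (red) or in male pupae (blue) on the y axis, in 4 bins of the probes by mean log2 signal over all 24 samples (x axis, range of each bin). In the brightest bin 16.2% were called higher in abdomens and 12.9% in male pupae, against 4.06% and 0.602% in the dimmest.

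On the compressed scale that the offset of 50 gives, most probes were bounded to small changes. At 15187 probes, 67.7% of the 22443 detected in both groups, the whole 95% confidence interval of the change lay within 0.5 log2 units of 0. These steady probes were mostly dim, with a median log2 signal of 6.08 in abdomens and 6.09 in male pupae. With an offset of 10, only 4877 probes met the same bound, and with plain background subtraction 6093, both run after seeing the data, so the number of steady probes depended on the offset. Of the 15187, 556 were also called, at changes too small to leave the bound. A further 4462 probes, 19.8% of all, were neither called nor bounded in this way, so nothing firmer can be said about them at this number of arrays.

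Samples of a group lay closer to each other than to the other group at the median. Over all probes the median absolute difference was 0.113 log2 units between pairs of abdomen samples (median of 6 pairs, range 0.0838 to 0.122). It was 0.129 between pairs of male pupa samples (6 pairs, 0.0962 to 0.182) and 0.167 between an abdomen and a male pupa sample (16 pairs, 0.105 to 0.209). The median was larger across the groups, but the ranges overlap. Of 21582 probes measured in all 8 samples, the 4 abdomen and 4 pupa values did not overlap for 20.9%, with all abdomens above for 12.8% and below for 8.09%. Among the called probes measured in all 8 samples, the values did not overlap for 2142 of 2301 abdomen-higher and 951 of 1057 pupa-higher probes. The calls were made on these same values, so these counts describe the lists and do not test them.

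Over the 90 probes at least 2 log2 units higher in abdomens, the sample medians were 9.10, 8.94, 9.09 and 9.15 in abdomen replicates 1 to 4. They were 6.69, 6.30, 6.24 and 6.37 in male pupa replicates 1 to 4. Male pupa replicate 1, which shared its array with abdomen replicate 4, was the highest of the pupa samples. Over the 73 probes at least 2 log2 units higher in male pupae, the medians were 6.74, 6.64, 6.49 and 7.005 in the abdomens and 9.57, 9.52, 9.43 and 9.43 in the male pupae. The 2 highest abdomen values came from replicates 4 and 1, the samples whose arrays also carried pupae. These medians describe the lists and were fixed in direction by the choice of the probes.

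The probe with the largest change toward abdomens was probe 3991. Its log2 signal was 10.89, 9.69, 11.02 and 10.40 in abdomen replicates 1 to 4 and 6.29, 5.74, 5.62 and 5.81 in male pupa replicates 1 to 4. All abdomen samples lay far above all pupa samples, and the lowest was replicate 2, the dimmest sample of the group. Probes named here and below were taken only from those without overlap between the groups, so this separation was fixed by the choice. The change was 4.64 (SE 0.24, 95% interval 4.14 to 5.13, limma adjusted p = 4.78e-12). The same probe was dim in every other group, with 5.96 ± 0.33 in heads, 5.71 ± 0.11 in female pupae, 5.90 ± 0.42 in the pooled pupal RNA of both sexes and 5.72 ± 0.13 in embryos (SD, n = 4 each). The male pupa values lay close to the floor that the offset of 50 sets, and with an offset of 10 the change was 6.44, so its size is not fixed by the interval above. Abdomens exceeded heads by 4.54 (SE 0.24, limma adjusted p = 2.54e-12), so the high signal was seen in adult male abdomens and not in adult male heads.

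Probe 14687 followed, with 11.29, 11.67, 11.19 and 11.24 in abdomen replicates 1 to 4 and 7.24, 6.29, 6.80 and 6.70 in male pupa replicates 1 to 4. The abdomen samples were close together and, by the choice of the probe, did not overlap the pupa samples. The change was 4.59 (SE 0.23, 95% interval 4.11 to 5.07, limma adjusted p = 3.53e-12). Heads had 6.99 ± 0.31, female pupae 6.80 ± 0.17, mixed-sex pupae 7.01 ± 0.55 and embryos 6.47 ± 0.19 (SD, n = 4 each), which lay at the level of the male pupae. Neither probe differed between male and female pupae beyond the error (limma adjusted p = 0.890 and 0.967).

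Toward male pupae, the largest change at a probe measured in all 8 samples was at probe 8010. It had 11.92, 12.07, 12.27 and 12.26 in male pupa replicates 1 to 4 and 8.05, 6.13, 6.21 and 8.47 in abdomen replicates 1 to 4. The pupa samples were nearly equal, while the abdomen samples fell into a higher and a lower pair. The change was -4.91 (SE 0.65, 95% interval -6.26 to -3.57, limma adjusted p = 6.53e-06). The signal was also high in female pupae, 11.47 ± 0.26, and mixed-sex pupae, 11.82 ± 0.10, and lower in embryos, 8.47 ± 1.34, and heads, 7.10 ± 1.57 (SD, n = 4 each). Heads fell below female pupae too, and that difference was -4.37 (SE 0.65, limma adjusted p = 2.75e-05). There were 2 probes with a larger change toward male pupae, and both had at least 1 spot left out for its quality mark in the 8 samples.

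The pairs of abdomen values at probe 8010 followed the other sample on the array. Replicates 1 and 4, at 8.05 and 8.47, shared arrays with pupae, and replicates 2 and 3, at 6.13 and 6.21, with heads. The same held across all 12 samples that were not pupae. The 6 that shared an array with pupae lay between 8.05 and 9.43, and the 6 that did not lay between 6.01 and 6.602. With abdomen replicates 1 and 4 and male pupa replicate 1 left out, a choice made after seeing the data, the change at this probe was -6.04 (limma adjusted p = 2.44e-05) against -4.91 with all samples. With the array as a random block it was -4.27 (limma adjusted p = 2.14e-06), and in a fit of differences within arrays (a fixed array block) -3.37 (limma adjusted p = 6.32e-05). The direction and the call were thus the same in these fits, while the size moved both ways. What gave the difference between the pairs was not tested.

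Probe 13203 had 11.24, 10.90, 11.18 and 10.65 in male pupa replicates 1 to 4 and 6.70, 6.14, 5.78 and 7.59 in abdomen replicates 1 to 4. By the choice of the probe all pupa samples were above all abdomens. The abdomens that shared arrays with pupae were again the higher ones. Over all samples that were not pupae, however, those on arrays with pupae (6.70 to 11.2, 5 samples) and the 6 others (5.78 to 9.57) overlapped. The change was -4.44 (SE 0.46, 95% interval -5.41 to -3.47, limma adjusted p = 5.45e-07). Unlike at probe 8010, embryos were not called lower than female pupae. They had 10.01 ± 1.07 (SD, n = 3 after a spot with a quality mark was left out) against 10.83 ± 0.27 in female pupae (SD, n = 4). The difference of 0.82 was not called (limma adjusted p = 0.465). The embryo values ran from 9.23 to 11.22, so the missed threshold does not show equal levels. Heads had 6.69 ± 1.01 (SD, n = 4), so this signal was high in embryos and pupae and low in both adult parts. The size of these changes moved with the processing as well, to 5.36 at probe 14687, -5.66 at probe 8010 and -5.47 at probe 13203 with an offset of 10. Within arrays it was 4.16 at probe 3991, 4.005 at probe 14687 and -3.59 at probe 13203.

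**Figure D3:**
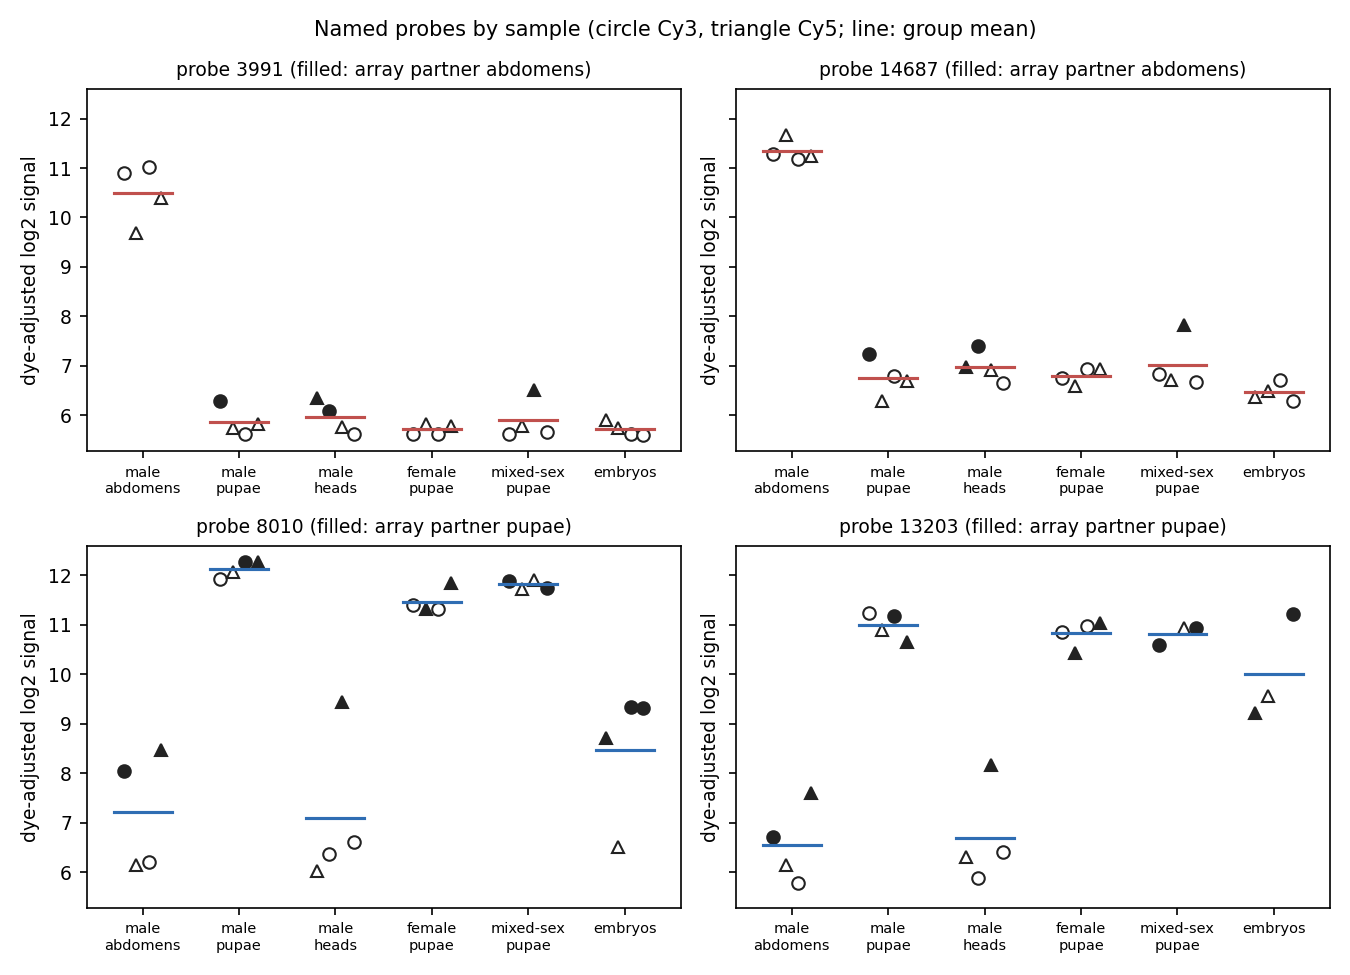
Dye-adjusted log2 signal (y axis) of the 4 named probes in every sample of the 6 groups, circles for Cy3 and triangles for Cy5, with a line at each group mean. Filled symbols mark samples whose array also carried abdomens (upper panels) or pupae (lower panels). At probe 8010 the filled abdomen symbols sit at 8.05 and 8.47 and the open ones at 6.13 and 6.21.

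At the 2 abdomen-higher probes, samples that shared an array with abdomens were higher as well, by less. At probe 3991 the 4 samples that shared an array with abdomens lay between 6.10 and 6.51, and the 16 other samples outside the abdomen group between 5.61 and 5.90. At probe 14687 the ranges were 6.98 to 7.83 and 6.29 to 6.95. Over the 90 probes at least 2 log2 units higher in abdomens, the medians of the male and mixed-sex pupa samples that shared arrays with abdomens were 6.69 and 6.92. The 14 pupa and embryo samples on other arrays lay between 6.24 and 6.43. Heads did not follow this pattern over the 90 probes, with 7.59 and 8.02 on arrays with abdomens and 7.76 and 7.88 on other arrays. Of these probes 53 were called higher in heads than in female pupae, so this median can hide a small shift. At probe 3991 heads had 6.35 and 6.10 on arrays with abdomens and 5.76 and 5.62 on others. Over the 1676 abdomen-higher probes not called between heads and female pupae, heads had 6.17 and 6.16 against 6.10 and 6.08. Over the 73 probes at least 2 log2 units higher in male pupae, 6 samples that were not pupae shared an array with pupae. Their medians were 6.74 to 7.44, against 6.49 to 6.72 in the other 6 samples that were not pupae.

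Because the calls had been made on the same samples, each sample was also read at probes called without it. The measure was its position between its own group (0) and the other group (1), over probes with a change of at least 2 log2 units. At pupa-higher probes, abdomen replicate 4 lay 0.0975 of the way to the male pupae, and abdomen replicates 1, 2 and 3 lay at -0.0035, -0.0483 and -0.0535. At abdomen-higher probes, male pupa replicate 1 lay 0.0950 of the way to the abdomens, and male pupa replicates 2, 3 and 4 at -0.0249, -0.0543 and -0.0186. These 2 samples shared an array. At abdomen-higher probes, abdomen replicate 2, the dimmest sample of its group, lay 0.0899 of the way to the pupae, which is lower signal at bright probes in place of higher signal at dim ones. The causes of these shifts were not tested.

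The array with abdomen replicate 4 and male pupa replicate 1 allowed a direct reading within 1 array. With both samples left out of the calls, 2121 probes were higher in abdomens and 967 in male pupae. On that array, 2085 of 2105 measured abdomen-higher probes (99.0%) and 910 of 962 pupa-higher probes (94.6%) had the same sign, while 43.5% of all probes were higher in the abdomen sample. The median difference there was 0.54 for the abdomen-higher probes, against 0.62 in the other samples, and -0.46 against -0.68 for the pupa-higher probes. The direction of the calls was thus nearly always seen within that single array, at a smaller median size. The sizes in the other samples came from the fit that chose the probes, which can inflate them. The smaller size is therefore not read as a property of that array.

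Probes called in 1 dye alone mostly had the same direction in the other dye. The Cy3 samples, 2 against 2, called 1442 abdomen-higher and 602 pupa-higher probes, of which 99.3% and 96.7% had the same sign in the Cy5 samples. The Cy5 samples called 1299 and 452, of which 99.5% and 92.5% had the same sign in the Cy3 samples. The Cy3 samples alone called 55.9% of the main abdomen-higher list and 48.1% of the main pupa-higher list in the same direction. The Cy5 samples alone called 53.4% and 33.1%. Over all probes the median change was -0.016 in each dye. The share with the same sign in both dyes was counted neither over all probes nor over the main lists, so the same-sign shares have no baseline. The dyes are not fully separate, since abdomen replicate 4 (Cy5) and male pupa replicate 1 (Cy3) shared an array. All samples were also normalized together. A dependence of the difference on the dye was tested as a dye by group term in the 8 samples. It was called at 0 of 22555 probes (limma adjusted p at 0.05, percent called 0), and 728 probes had an unadjusted p under 0.05, which is 3.23%.

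Brightness of the array went with the groups, since no abdomen sample and 3 of 4 male pupa samples lay on the brighter arrays. With brightness as a term in the fit of all 24 samples, 2141 probes were higher in abdomens and 1550 in male pupae, so abdomen-higher probes made up 58.0% of the calls. Within the dimmer arrays 738 and 502 were called, with male pupa replicate 1 as the only pupa sample, which is assumed to vary like the other groups. Leaving out that sample raised the pupa-higher probes from 1085 to 1655, and the abdomen-higher probes to 2585. Abdomen-higher calls outnumbered pupa-higher calls in each of these fits, by differing amounts.

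To see which of these differences also separated other adult and pupal samples, heads of males were compared with female pupae. This comparison shares no sample with the abdomen comparison, but differs from it in body part and in the sex of the pupae. Both came from the same fit of all 24 samples and share the spread estimated for each probe. In the abdomen comparison calls were also more frequent at brighter probes. The shares of all probes called may therefore understate the overlap that spread and brightness alone would give, which was not tested. It called 1622 probes higher in heads (7.18% of all) and 1608 higher in female pupae (7.12%). Of the 1085 probes higher in male pupae than in abdomens, 663 (61.1%) were also higher in female pupae than in heads, which is 41.2% of that list, and 26 were higher in heads. Of the 73 with at least 2 log2 units, 71 (97.3%) were also higher in female pupae. Large pupa-higher signals were therefore nearly all lower in both adult parts than in pupae of the sex compared.

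The abdomen-higher probes were divided. Of the 2397, 681 (28.4%) were also higher in heads than in female pupae, 42.0% of that list, 40 were higher in female pupae, and 1676 were called in neither direction. Among the 90 with at least 2 log2 units, 53 (58.9%) were also higher in heads. These 53 had medians of 9.07 ± 0.14 in abdomens and 8.75 ± 0.18 in heads, and 6.64 ± 0.13 and 6.72 ± 0.09 in male and female pupae (SD of sample medians, n = 4 each). The remaining 37 had 9.03 ± 0.23 in abdomens, 6.27 ± 0.32 in heads, 6.15 ± 0.15 in male pupae and 6.06 ± 0.07 in female pupae (SD, n = 4 each). For all 37 of these, and for 18 of the 53, the abdomen change exceeded the head change in a direct test (limma adjusted p at 0.05, called at 8.20% of all probes in either direction). The 37 had been chosen by a large change in abdomens and no call toward heads, and include 1 probe called higher in female pupae than in heads. That choice nearly decides the test and the low level in heads, so both are a description. The largest abdomen-higher signals thus held a set high in both adult parts and a set whose median was high in abdomens and low in the 5 other groups. The second set includes probes 3991 and 14687.

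Heads shared 2 arrays with abdomens, and female pupae shared 1 with male pupae. With those 2 head samples and that female pupa sample left out, 572 (23.9%) of the abdomen-higher and 520 (47.9%) of the pupa-higher probes were shared in the same direction, where 5.72% and 4.32% of all probes were called. Among probes with at least 2 log2 units the counts were 51 of 90 and 71 of 73. The shares among large changes were therefore close to those with all samples, while those over the whole lists were lower.

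**Figure D4:**
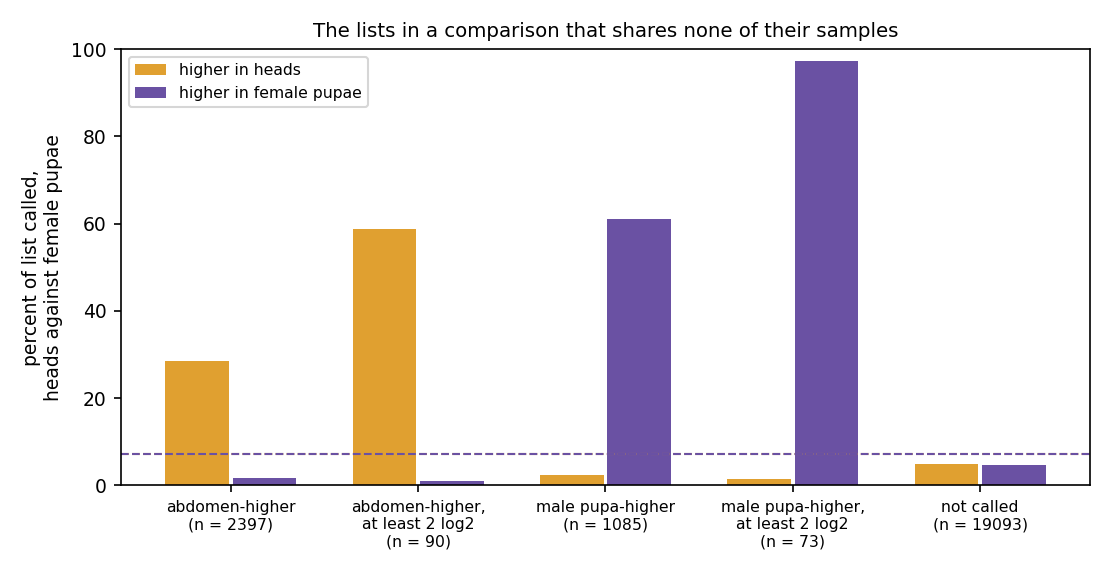
Percent (y axis) of the probes of each list (x axis) called higher in heads (orange) or higher in female pupae (purple) in the comparison of male heads with female pupae, with dashed lines at the share of all probes called in each direction, 7.18% and 7.12%. Of the 73 large pupa-higher probes 97.3% were higher in female pupae, and of the 90 large abdomen-higher probes 58.9% were higher in heads.

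Embryos gave a further view of the same lists. Female pupae and embryos share no sample with abdomens or male pupae and differed at 2274 probes, 10.1% of all, with 1015 probes higher in female pupae (4.50% of all) and 1259 higher in embryos (5.58%). With scaling to the 75th percentile the larger side turned, with 727 higher in female pupae and 576 in embryos. Of the 1085 probes higher in male pupae than in abdomens, 464 (42.8%) were also higher in female pupae than in embryos, 45.7% of that list, and 55 (5.07%) were higher in embryos. Of the 73 with at least 2 log2 units, 67 (91.8%) were higher in female pupae and 0 in embryos. Most large pupa-higher signals were thus lower in embryos and in both adult parts than in pupae. Probe 13203, with a high signal in embryos, was an exception.

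Of the 2397 abdomen-higher probes, 284 (11.8%) were higher in embryos than in female pupae, 22.6% of that list, and 104 (4.34%) were higher in female pupae, near the share of all probes. Of the 90 with at least 2 log2 units, 16 (17.8%) were higher in embryos and 6 (6.67%) in female pupae. Female pupa replicate 1 shared an array with embryos, and female pupa replicate 4 and embryo replicate 4 with male pupae, so these comparisons are not fully separate. They also came from the same fit of all 24 samples and share the spread estimated for each probe.

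The levels in all groups were also read over the whole lists, where a median of each list does not show the sets described above. The 2397 abdomen-higher probes had a median of 7.05 ± 0.08 in abdomens, 6.38 ± 0.08 in male pupae, 6.32 ± 0.05 in heads, 6.33 ± 0.09 in mixed-sex pupae, 6.18 ± 0.03 in female pupae and 6.19 ± 0.01 in embryos (SD of sample medians, n = 4 each). The 1085 pupa-higher probes had 7.15 ± 0.04 in male, 7.30 ± 0.02 in female and 7.18 ± 0.03 in mixed-sex pupae. They had 6.46 ± 0.04 in abdomens, 6.62 ± 0.06 in heads and 6.73 ± 0.04 in embryos (SD, n = 4 each). Male pupae were thus slightly above female pupae at abdomen-higher probes and slightly below them at pupa-higher probes. The 998 probes called higher in male pupae against female pupae, a comparison that shares the male pupa samples, had medians of 6.75 ± 0.09 in male pupae and 7.15 ± 0.08 in abdomens (SD, n = 4 each). Of these, 644 were called higher in abdomens than in male pupae and 38 lower, where 10.6% and 4.81% of all probes were. Of the 147 probes called higher in female pupae, 14 were higher in abdomens than in male pupae and 63 lower. Nothing is read from these counts, since the male pupa samples enter both comparisons.

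**Figure D5:**
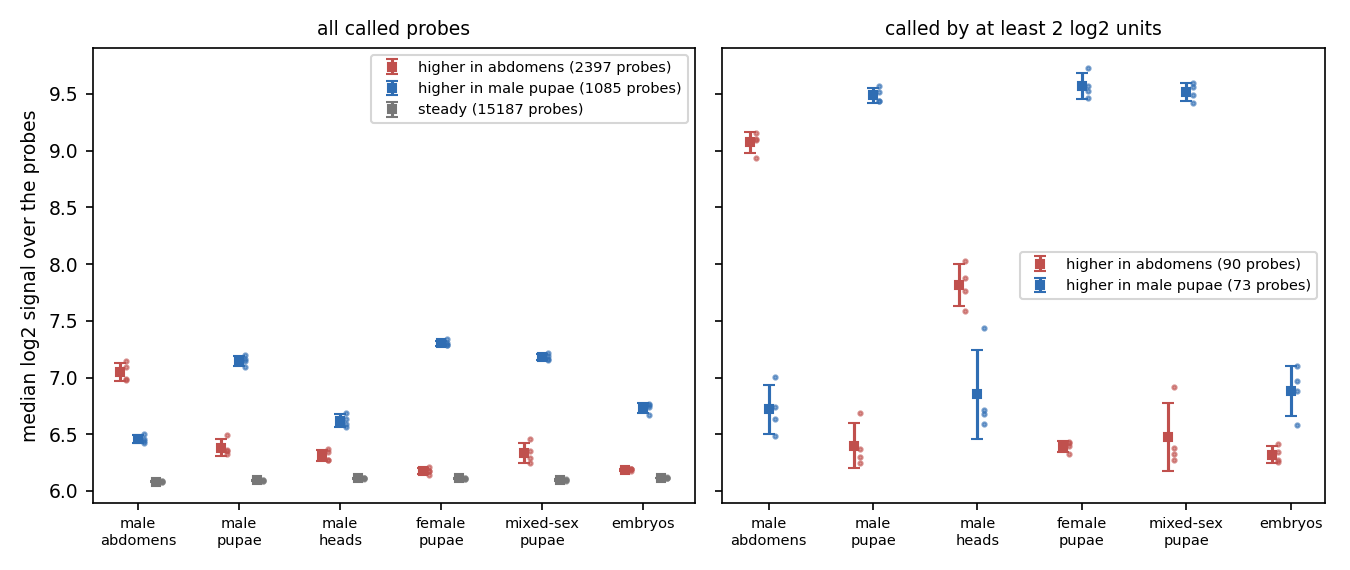
Median log2 signal over each list of probes (y axis) in the 6 groups, as mean of the 4 sample medians (squares) with SD (bars) and the samples (dots), for all called and steady probes (left) and for changes of at least 2 log2 units (right). Large abdomen-higher probes stood at 9.07 in abdomens and 7.81 in heads, and large pupa-higher probes between 9.49 and 9.57 in the 3 pupal groups.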

How the data were processed

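The authors deposited 1 scanner table per sample with mean and median intensity of signal and local background and a quality mark for each spot, not normalized, per the file headers. They also deposited a table of natural log values, which were reproduced from the spot tables as ln(mean signal − mean background), differing by at most 8.42e-08. Scanner software: not given in the sources used here. Per the design text, unamplified mRNA was labelled, while the labels name total RNA.

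In R 4.3.3 with limma 3.58.1, mean signal was corrected for median local background by normexp with an offset of 50, spots with a quality mark were left out, and log2 values were quantile normalized over all 24 samples. A linear model with group means and a dye term was fitted to all 24 samples (17 residual degrees of freedom) with trended moderated variances, and calls were made at a Benjamini-Hochberg adjusted p of 0.05 over 22575 probes. Printed levels were dye-adjusted. Detection meant a signal 2 SD of spot backgrounds above the background, in at least 3 of 4 samples. Arrays were identified by identical patterns of marked spots. Arrays were called bright or dim at the largest gap in signal. Since files pair no probe with a gene, the rule named 2 probes per direction, those with the largest called change whose 8 values were all measured and did not overlap between groups. The model was tested on simulated data. The probes, lists and tests were chosen with earlier results of these data known. The test of the difference between the abdomen and head changes, the levels by array partner and the positions of samples were added after seeing the data. Alternatives covered background, scaling, filters, samples in the fit, dye, array, array brightness, replicate number and thresholds.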

Additional observations from a re-analysis of the deposited data

Results flagged for a closer look

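At probe 3991 the change from male pupae to male abdomens exceeded the change from female pupae to male heads by 4.39 log2 units (SE 0.34, limma adjusted p = 8.37e-09). At probe 14687 the excess was 4.41 (SE 0.33, limma adjusted p = 5.25e-09). Both were picked out because this difference between the 2 adult and pupal comparisons was itself past the threshold. Both had already been named for their large changes toward abdomens, which form part of this difference. That choice nearly decides the test, so the values are a description. The comparisons differ in body part and in the sex of the pupae, which cannot be told apart here. Within abdomens and within male pupae, 12 checks on the 4 named probes and the medians of the called lists looked for a lone distant sample (Dixon's test), and none was found. Chance gives about 5% of such checks.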

How the results depend on the processing

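The 3482 calls moved by over 1.5 times with fewer samples or a stricter rule: to 2044 in Cy3 samples alone, 1751 in Cy5 samples alone, 1240 on dim arrays alone and 662 at 1 log2 unit or more. Without the abdomen samples that shared arrays with pupae they were 2176, and without male pupa replicate 1 as well 2234, both chosen after seeing the data. Leaving out each replicate gave 2861 to 4240. Scaling to the 75th percentile gave 2493, of which 72.9% were higher in abdomens, with the median change of all probes at 0.11 in place of -0.02. With samples centred on their medians (added later) it was 0.04, and 69.4% of 2641 calls were higher in abdomens. With the array as a random block (within-array correlation 0.489) 2812 probes were higher in abdomens and 1579 in male pupae, 4391 in all. As a fixed block the total was 3507, but 2185 and 1322 by direction, and it shared only 1861 (77.6%) of the 2397 abdomen-higher and 746 (68.8%) of the 1085 pupa-higher calls. The steady probes fell from 15187 to 4877 with an offset of 10 and to 6093 with plain subtraction (both added later), where dim values are less compressed. The head and female pupa comparison fell to 1781 and the female pupa and embryo comparison to 1303 with scaling to the 75th percentile, from 3230 and 2274. Of the latter calls 44.6% were higher in female pupae, and 55.8% with that scaling. The cause was not tested. Whether the replicate numbers pair the samples was not settled. Correlations of deviations were 0.560, 0.203, 0.389 and -0.255 for numbers 1 to 4. Of the abdomen samples, 2 of 4 were closest to their own number, but samples of the same number also shared a dye. With the numbers as a replicate block 3284 probes were called. The 4 named probes kept their direction and their call in each of the 29 or 30 alternatives in which they were measured. Their changes were 4.16 to 6.44 (probe 3991), 4.005 to 5.36 (probe 14687), -6.04 to -3.37 (probe 8010) and -5.47 to -3.59 (probe 13203). These probes had been chosen for large changes without overlap, which nearly fixes their direction. Some alternatives, such as the stricter adjusted p and the detection filter, left the estimates as they were. The count of alternatives is therefore a description. Dim probes are limited by signal over background, above all in abdomen replicate 2.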

Other observations

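Few probes were called in opposite directions in the 2 adult parts. Of the 1085 pupa-higher probes 26 (2.40%) were higher in heads than in female pupae, where 7.18% of all probes were, and of the 2397 abdomen-higher probes 40 (1.67%) were higher in female pupae than in heads, where 7.12% were. The 26 probes higher in male pupae than in abdomens but higher in heads than in female pupae had medians of 6.32 ± 0.07 in abdomens, 6.94 ± 0.09 in male pupae, 6.97 ± 0.07 in female pupae and 7.76 ± 0.11 in heads (SD of sample medians, n = 4 each). Embryos, at 6.85 ± 0.02, lay close to the pupae. These medians describe probes chosen by both calls, which fix their direction.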
